A study of Homo sapiens with 14 samples.

Results

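The Y RNA cluster on 7q36 is a group of 4 small RNA genes, RNY5, RNY4, RNY3 and RNY1, lying in that order within 45761 bases of chromosome 7. Its members were taken as all rows of the deposited tables whose hg19 locus is at most 150 bases long and lies in a window of 47.0 kb around them. This gave 4 of 204092 transcripts, each at a locus of its own. The cluster was chosen by a measured value: its transcript ENST00000364228, at RNY1, was among the largest falls of knockout against wild type FPKM. All knockout and wild type values of the 4 loci are therefore given as a description, and nothing is supported with them.

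Y RNAs are short noncoding RNAs made by RNA polymerase III, each from its own small promoter. They fold into a stem with a loop, and the stem binds the Ro60 protein, which takes part in the quality control of other small RNAs. The La protein binds their uridine-rich ends, and Y RNAs have also been linked to the start of chromosomal DNA replication in human cells.

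Total RNA of HEK293T cells, a human embryonic kidney line that carries the SV40 large T antigen, was depleted of ribosomal RNA and sequenced. The groups were HEK293T cells with SETD2 knocked out, with 3 libraries listed, and wild type HEK293T cells, also with 3 libraries listed. SETD2 is the histone methyltransferase that places the H3K36me3 mark along transcribed genes. For a wild type RNA library the labels describe extraction by chromatin immunoprecipitation. The labels do not say how SETD2 was knocked out, whether the knockout line is a single clone, or whether separate cultures were sequenced. The authors' p-values may therefore reflect technical spread alone.

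The deposited values are FPKM, fragments scaled to transcript length and to the total of mapped fragments, with 1 value per group. No library has a value of its own, so library depths are unknown and replicate errors cannot be given. Each group has a value in a table of tests and another in a tracking table, where lower and upper bounds of a level not given in the file stand beside it. Of 85852 transcripts tested by the authors, 219 passed their q-value of 0.05, which is 0.255%. Transcripts that passed and were lower in the knockout made up 0.192% of those tested. The deposited IDs are Ensembl transcripts that the files pair with no gene name, so the level of SETD2, the markers of the cell line, and the proteins of the Ro60 particle and of RNA polymerase III were not analysed here.

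The names of the 4 loci follow their positions. The RefSeq annotation of GRCh38 holds 4 genes of the Y RNA class, all on chromosome 7 and in the same order. Their starts are spaced by 21827, 20440 and 3381 bases from RNY5 to RNY1, and the deposited hg19 loci have the same spacings. The lengths of RNY4 (96 bases), RNY3 (102 bases) and RNY1 (113 bases) are also the same in both. The deposited RNY5 locus is 79 bases long, against 84 bases for the RefSeq gene.

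RNY1 and RNY5 had values above 0 in wild type cells. RNY3 and RNY4 were listed at 0 in both groups. In the table of tests, none of the 4 loci had a value above 0 in the knockout. In the tracking table, RNY1 did, at 21.7 FPKM.

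RNY1 is ENST00000364228, on chromosome 7 from 148684228 to 148684340. Its RNA is among the Y RNAs whose loop is bound by nucleolin and the polypyrimidine tract binding protein PTBP1. In the table of tests RNY1 was listed at 0 FPKM in the knockout and at 55.0 FPKM in wild type. In the tracking table the knockout stood at 21.7 FPKM, with bounds of 19.5 and 23.8 FPKM, and wild type at 53.7 FPKM, with bounds of 0 and 137.7 FPKM. The knockout was thus lower in both tables, but the knockout bounds of the tracking table do not include the 0 of the table of tests. The whole knockout interval also lies inside the wild type interval.

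By the tracking values, RNY1 in the knockout was at 40.3% of wild type, a log2 ratio of -1.31 of knockout over wild type. No ratio is given for the table of tests, where the knockout is listed at 0. The authors' deposited table gives RNY1 p = 5e-05 and q = 0.0220, the lowest q in that table, which RNY1 shares with other transcripts. This p and q come from the same comparison by which the cluster was picked, and they rest on a knockout value of 0. Fewer cells that hold the RNA and less of it per cell cannot be told apart in bulk RNA.

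RNY5 is ENST00000516501, from 148638580 to 148638658. Its RNA has been found with the ribosomal protein RPL5 as well as with Ro60. Both tables listed RNY5 at 0 FPKM in the knockout, with bounds of 0 and 0 in the tracking table. In wild type it stood at 30.7 FPKM in the table of tests and at 30.1 FPKM in the tracking table, with bounds of 29.0 and 31.3 FPKM. The intervals of the groups did not overlap. Even so, the authors' deposited table gives RNY5 p = 0.0742 and q = 0.991, so that it did not pass.

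Of the 2 members that the authors tested, 1 passed their q-value, beside 0.255% of all tested transcripts and 2.97% of those at loci of at most 150 bases. The cluster was chosen by this comparison, so nothing is read from that share. The tested members came out in opposite ways by 2 measures. RNY1 passed the q-value and had overlapping intervals, while RNY5 missed the q-value and had intervals that did not overlap. Intervals of the groups did not overlap for 0.632% of all tested transcripts and for 48.5% of the 101 tested at loci of at most 150 bases. Where an interval runs from 0 to 0, as that of RNY5 does in the knockout, any lower bound above 0 in the other group keeps the intervals apart.

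RNY4 is ENST00000516507, from 148660407 to 148660502, and RNY3 is ENST00000365484, from 148680847 to 148680948. Both are bound by Ro60, and RNY3 is, with RNY1, a Y RNA to which nucleolin binds. Each was listed at 0 FPKM in the knockout and in wild type in both tables, with bounds of 0 and 0. The authors did not test them, and a change between the groups was not measurable for either. A value of 0 here does not show that the RNA is absent from the cells, since the reads behind it are not known.

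**Figure D1:**
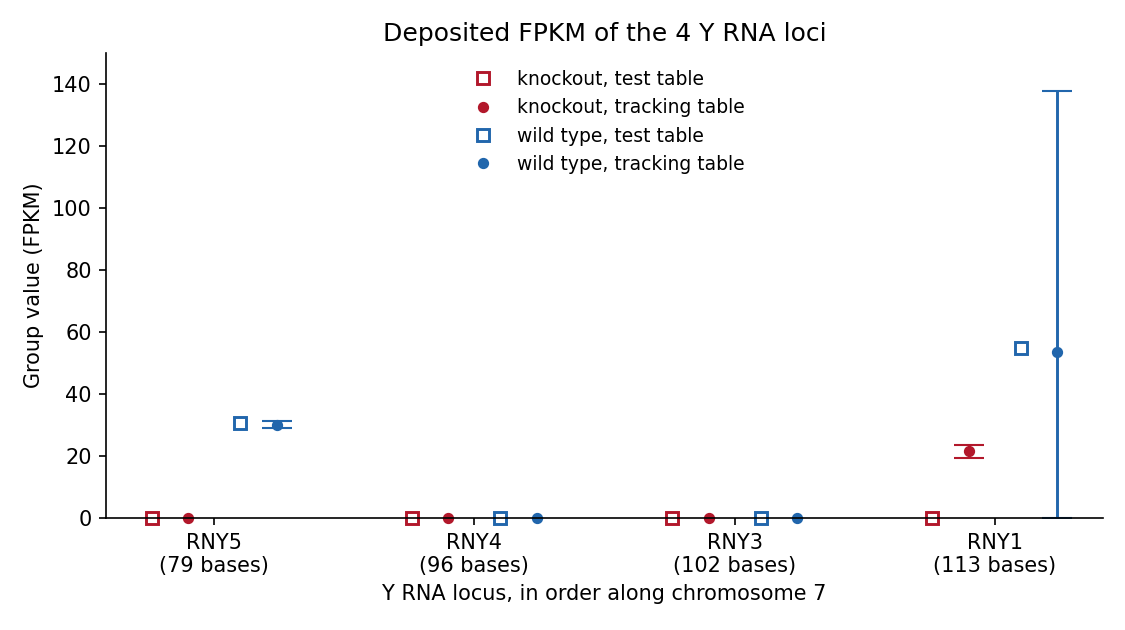
FPKM of the 4 Y RNA loci (y axis) in their order along chromosome 7 (x axis), knockout in red left of wild type in blue; open squares are the table of tests, filled circles the tracking table, and bars the authors' bounds, not drawn where they are 0 and 0. RNY1 has knockout values of 0 and 21.7 FPKM and a wild type bar up to 137.7 FPKM, RNY5 is above 0 in wild type, and RNY4 and RNY3 are at 0 throughout.

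Summed over the 4 loci, the table of tests gave the knockout 0 FPKM and wild type 85.8 FPKM. In the tracking table these sums were 21.7 FPKM for the knockout and 83.8 FPKM for wild type. On the tracking values the 4 loci held 0.00172% of all FPKM in the knockout and 0.00634% in wild type. Loci of the mitochondrial chromosome held most of the FPKM at loci of at most 150 bases, with 97.0% in the knockout and 95.5% in wild type in the table of tests. In the tracking table the order of the groups was reversed, with 93.7% in the knockout and 95.5% in wild type. Over the other loci of this length, on the nuclear chromosomes, the 4 Y RNA loci held 0.146% of the FPKM in the knockout and 0.511% in wild type on the tracking values. Values of 0 count as 0 in these shares.

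The total over the nuclear loci of at most 150 bases, the Y RNA loci included, differed between the tables in the knockout. In the table of tests it was 7870 FPKM in the knockout, against 16814 FPKM in wild type. The tracking table gave 14849 FPKM in the knockout, against 16404 FPKM in wild type. A single locus of 61 bases, ENST00000577708, made up most of the gap between the tables and most of the difference between the groups in the table of tests. It stood there at 604 FPKM in the knockout, against 7792 FPKM in wild type. In the tracking table it stood at 7258 FPKM in the knockout, against 7595 FPKM in wild type. Scaled to equal totals over the other nuclear loci of this length, an alternative chosen after seeing the data, the summed difference of the 4 Y RNA loci in the table of tests, knockout minus wild type, was -58.8 FPKM, beside -85.8 FPKM without scaling.

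The difference between the tables at RNY1 was set beside those of the other short loci. The tables hold 3449 transcripts at 3445 loci of at most 150 bases, and each transcript is counted as a locus in what follows. Of the 3374 that the table of tests listed at 0 in the knockout, 10 had a knockout value above 0 in the tracking table. They ranged from 21.7 to 197.7 FPKM, and RNY1 was the lowest of them. No locus of at most 150 bases was listed at 0 in 1 table and above 0 in the other for wild type. For wild type the tracking value of RNY1 was 0.975 times its value in the table of tests, and that of RNY5 was 0.980 times, within the range of 0.950 to 0.982 over short loci above 0. For the knockout the ratio of the tables ran from 0.652 to 19.7 over the short loci above 0 in both, with a median of 0.711. Many of these loci shared the lowest ratio and none lay below it. ENST00000516743 was among them, at 143.5 FPKM in the table of tests and 93.5 FPKM in the tracking table. RNY1, at 0 in the table of tests, has no such ratio. The sources used here do not say how many knockout libraries entered each table, and its part in the RNY1 values was not tested.

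**Figure D2:**
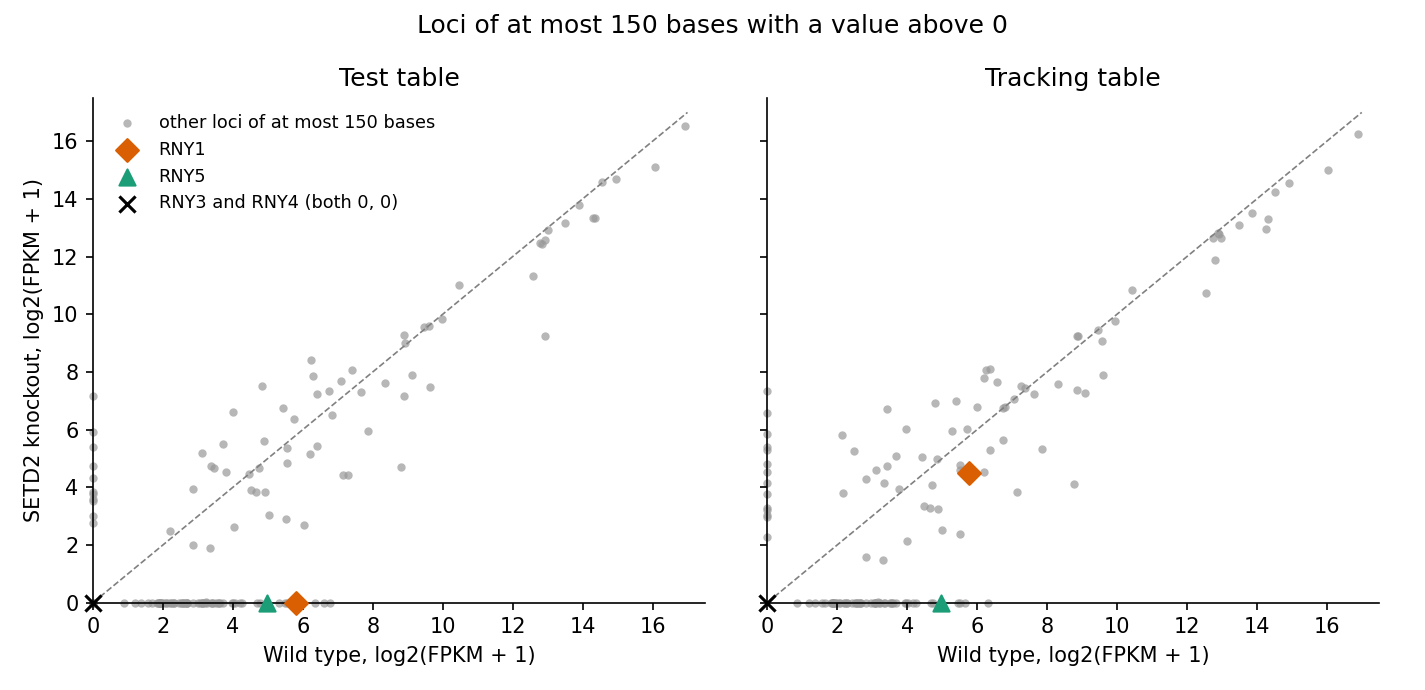
Knockout (y axis) against wild type (x axis) on the log2(FPKM + 1) scale for the 140 loci of at most 150 bases with a value above 0 in any column, in the table of tests (left) and the tracking table (right); the dashed line marks equal values. RNY1 lies on the floor of the left panel and below the line in the right one, and RNY5 is on the floor in both.

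Most short loci resembled RNY3 and RNY4 in having no value. Of 3449 transcripts at loci of at most 150 bases, 3309 (95.9%) were listed at 0 in both groups and both tables. In the table of tests 75 (2.17%) were above 0 in the knockout and 126 (3.65%) in wild type. The share above 0 varied with length. At 91 to 105 bases, the range of RNY4 and RNY3, it was 1.23% in the knockout and 2.97% in wild type. From 106 to 120 bases, where RNY1 lies, the shares were 1.32% in the knockout and 3.56% in wild type. At 76 to 90 bases, the range of RNY5, they were 2.13% in the knockout and 3.04% in wild type. The highest shares stood at 121 to 150 bases, with 5.27% in the knockout and 7.10% in wild type.

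**Figure D3:**
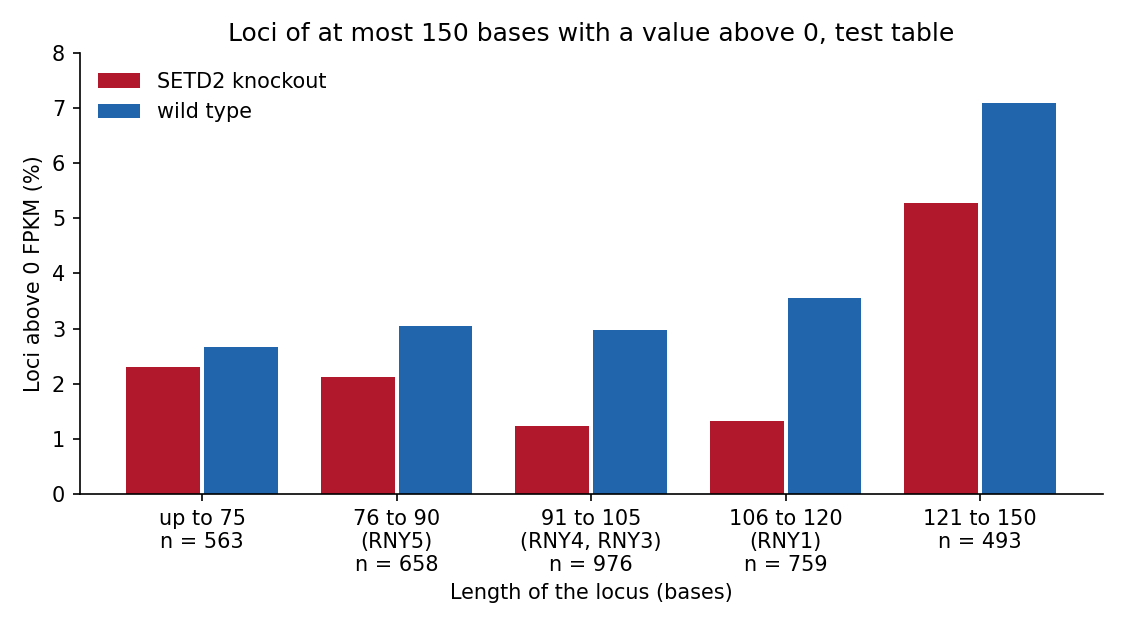
Share of loci above 0 FPKM in the table of tests (y axis, %) by length of the locus (x axis, bases), knockout in red left of wild type in blue, with the number of loci under each class. In each of the 5 classes the share was lower in the knockout, and it was highest at 121 to 150 bases.

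Loci of exactly the same length were compared, because FPKM is scaled to length. The lowest wild type value above 0 in the table of tests was 45.7 FPKM at loci of up to 75 bases. It was 7.74 FPKM at 76 to 90 bases, 3.77 FPKM at 91 to 105 bases, 2.00 FPKM at 106 to 120 bases and 0.829 FPKM at 121 to 150 bases. FPKM at short loci thus depended steeply on length, which limits the sums, shares and ranks given here over loci of different lengths, RNY1 and RNY5 included. Of 35 loci of 113 bases, none was above 0 in the knockout in the table of tests and 4 were above 0 in wild type. The wild type values were 2.74, 5.48, 8.26 and 55.0 FPKM, the last of them RNY1, which was 20.1 times the lowest. Of 21 loci of 79 bases, 1 was above 0 in the knockout and 2 in wild type, and RNY5 was the lower of the wild type values beside 74.3 FPKM. Within 5 bases of the length of RNY5, 15 of 399 loci were above 0 in wild type, the lowest at 11.1 FPKM, and 3 lay below RNY5. At the length of RNY3, 1 of 144 loci was above 0 in the knockout and 3 in wild type. At the length of RNY4, only 1 of 64 was above 0, at 764.3 FPKM in the knockout, against 778.3 FPKM in wild type in the table of tests.

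A 0 in the knockout was not rare among short loci with a value in wild type in the table of tests. In the table of tests 62 loci of at most 150 bases were at 0 in the knockout and above 0 in wild type, and 11 were the other way round. The authors tested 26 of the 62, and 4 of these 26, RNY1 included, had a knockout value above 0 in the tracking table. By wild type level RNY1 ranked 4 and RNY5 ranked 9 among the 26. The authors' deposited table gives these 26 loci p-values of 5e-05 to 0.0799, the lowest for RNY1 and the next at 0.0004. Of the 26, 15 had an unadjusted p under 0.05 in the authors' deposited table, and RNY1 was the 1 that passed their q-value. Among all 101 tested short transcripts 2 passed as lower in the knockout (1.98%) and 1 as higher (0.99%).

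The bounds of RNY1 and RNY5 belong to 2 kinds seen among these 26 loci. For 22 of them, RNY5 included, the wild type lower bound was above 0, and the distance to the upper bound was 2.27% to 48.9% of the value, with a median of 10.2%. It was 3.83% for RNY5. For the other 4, RNY1 included, the lower bound was 0 and the distance was 156% to 240% of the value, and RNY1 had the smallest. In the knockout the distance for RNY1 was 9.75%. The locus with the lowest p of the 26 was thus among those with the widest wild type bounds.

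**Figure D4:**
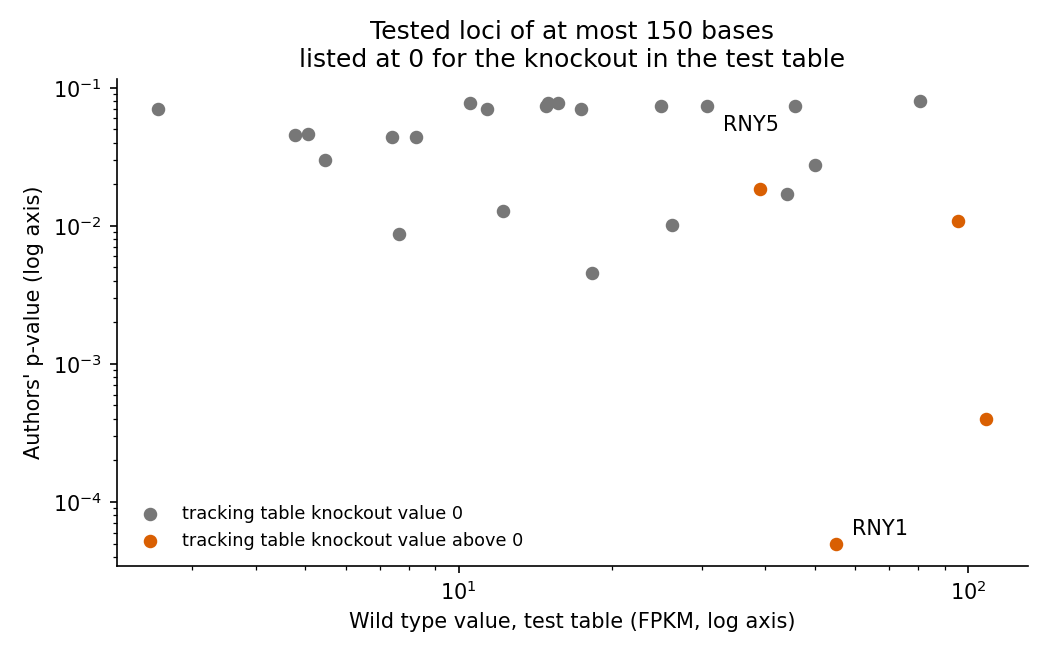
The authors' p-value (y axis, log) against the wild type FPKM of the table of tests (x axis, log) for the 26 tested loci of at most 150 bases that this table lists at 0 in the knockout; orange points had a knockout value above 0 in the tracking table and grey points did not. RNY1 is the lowest point and is orange, while RNY5 lies in a band of grey points near the top.

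Loci with the pattern most like RNY1 were ranked by distance over its 4 values (knockout and wild type in both tables) on the log2(FPKM + 1) scale, among 3440 other single-transcript loci of at most 150 bases. The first 3, like RNY1, were at 0 in the knockout in the table of tests and above 0 in the tracking table. The nearest, ENST00000363844 on chromosome 8 from 66504966 to 66505055, had a distance of 1.61, and in the tracking table it stood at 61.2 FPKM in the knockout, against 38.1 FPKM in wild type. The second, ENST00000408698 on chromosome 12 from 98999652 to 98999738, had tracking values of 48.3 FPKM in the knockout, against 106.3 FPKM in wild type, with q = 0.113 in the authors' deposited table. The third, ENST00000581326 on chromosome 17 from 58119722 to 58119803, had tracking values of 197.7 FPKM in the knockout, against 93.3 FPKM in wild type. The tracking values of the first and the third were thus higher in the knockout, although the table of tests lists both at 0 there.

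The other two had knockout values above 0 in both tables. ENST00000517156, on chromosome 3 from 125247088 to 125247193, stood at 5.52 FPKM in the knockout, against 63.9 FPKM in wild type in the table of tests. Its knockout value in the tracking table was 108.5 FPKM, against 62.5 FPKM in wild type. ENST00000603198, on chromosome 9 from 10948372 to 10948481, stood at 6.42 FPKM in the knockout, against 45.2 FPKM in wild type in the table of tests, and at 4.18 FPKM in the knockout, against 44.2 FPKM in wild type in the tracking table. Like RNY1, the second and the last of the 5 were lower in the knockout in both tables.

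Among all 71 loci of at most 150 bases above 0 in both groups of the tracking table, 41 were lower and 30 higher in the knockout, with a median log2 ratio of -0.30. Of these 71, 16 had a lower ratio than RNY1. Loci at 0 in either group have no ratio and are left out of these counts. By the tracking values, 126 loci of at most 150 bases were above 0 in wild type and 85 in the knockout. Those at 0 in the knockout alone, RNY5 among them, were listed with a larger relative fall than RNY1. Those at 0 in wild type alone were higher in the knockout. Over the 55889 transcripts that reached 1 FPKM in either group of the tracking table and were 0 in neither, the median log2 ratio was 0.08.

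The longer loci around the cluster gave values in both groups. RefSeq places EZH2, a histone methyltransferase of the Polycomb complex, as the last protein-coding gene before the Y RNA genes, and PDIA4, a protein disulfide isomerase of the endoplasmic reticulum, as the first after them. The deposited loci carry no names and are given by position. The nearest before the cluster with at least 1 FPKM in a group, of 12 transcripts from 148504475 to 148581413, summed to 40.3 FPKM in the knockout, against 34.0 FPKM in wild type in the table of tests. The nearest after it, of 3 transcripts from 148700154 to 148725733 and starting 15.9 kb from the start of RNY1, summed to 96.9 FPKM in the knockout, against 107.9 FPKM in wild type.

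Over the 3 such loci on each side, the log2 ratio of knockout over wild type in the table of tests ran from -0.15 to 1.65, and 5 of the 6 were higher in the knockout. The value of 1.65 came from a locus of 10.7 FPKM in the knockout, against 3.40 FPKM in wild type, from 148799876 to 148823438. In the tracking table the 6 ratios ran from -0.13 to 1.20. Of the 22 tested transcripts at these loci, 0 passed the authors' q-value, and 0 had an unadjusted p under 0.05 by the authors' test. Cuffdiff is among the tools listed in the submitters' processing notes. The median log2 ratio was 0.05 over 607 loci of chromosome 7 and 0.06 over 12405 loci of all chromosomes that were longer than 150 bases, reached 1 FPKM in a group and were above 0 in both. The last locus before the window, of 302 bases from 148587306 to 148587607, stood at 0 FPKM in the knockout, against 0.249 FPKM in wild type. The next of at most 150 bases after the window, 111 bases long from 148730149, was at 0 in both groups.

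**Figure D5:**
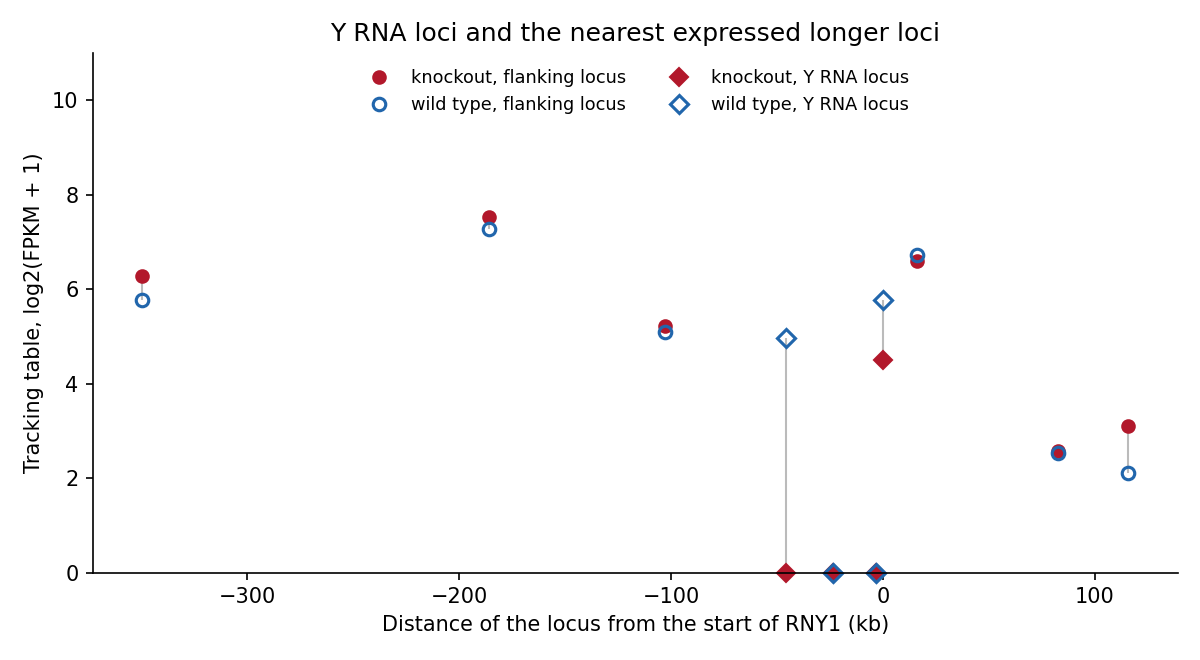
Tracking-table values on the log2(FPKM + 1) scale (y axis) of the 4 Y RNA loci (diamonds) and the 6 nearest longer loci with at least 1 FPKM (circles) against distance from the start of RNY1 (x axis, kb), knockout filled red and wild type open blue, joined by a grey line. The 6 longer loci differ by log2 ratios of -0.13 to 1.20, RNY1 by -1.31, and RNY5 is at 0 in the knockout.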

How the data were processed

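The authors deposited, per the file headers, FPKM values of each transcript summarised by group, bounds of these values in the tracking table, and a table of tests. That table holds p-values, q-values, a test score and a log2 fold in which wild type is divided by knockout, as the authors deposited them. Bowtie 1.1.2, TopHat, Cuffdiff and build hg19 appear in the submitters' processing notes, with no roles stated; the annotation was not stated. The gene and transcript tables of tests were identical. The deposited log2 fold was not used; ratios here are knockout over wild type.

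Rows were selected by position and length, and each start was raised by 1 to count from 1. Sums leave out 50 transcripts whose status was HIDATA or FAIL. The distance between patterns used a pseudocount of 1 FPKM. Named items were all 4 members, the 3 nearest longer loci of at least 1 FPKM on each side, and the 5 loci most like RNY1. Of 204092 IDs, 0 matched a reference table, so lists of Ro60 and polymerase III genes could not be applied. The members and lists were chosen with earlier results of these data known. Counting and ranking steps were tested on simulated data. The 8 ChIP samples were not analysed here. Python 3.11.15, pandas 2.3.3, numpy 2.4.6 and matplotlib 3.10.9 were used.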

Additional observations from a re-analysis of the deposited data

How the results depend on the processing

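The summed difference of the 4 Y RNA loci, knockout minus wild type, was -85.8 FPKM in the table of tests, -62.1 FPKM in the tracking table, and -84.9, -85.3 and -72.3 FPKM under the 3 scalings planned. Scaling to the other nuclear loci of at most 150 bases, ENST00000577708 included, was chosen after seeing the data and gave -58.8 FPKM. All these scalings used the table of tests, where the 4 loci are at 0 in the knockout. They could therefore change the size of the difference but not its direction. Scaled tracking values are not given. Each move of the sum is smaller than 42.0 FPKM, 0.5 times the distance from the values to their upper bounds combined over loci, most of it from RNY1. With a measure as wide as this, a smaller move does not show that the sum is stable. For RNY5, whose bounds are narrow (0.577 FPKM by the same measure), the difference of -30.7 FPKM moved by more than this to -30.1 FPKM in the tracking table and to -25.9 and -21.1 FPKM under the scalings to other short loci, all and nuclear. Of 219 calls, 0 passed a q-value of 0.01, since the lowest q is 0.0220 (2046 transcripts had an unadjusted p under 0.05 by the authors' test), and 93 also had intervals that did not overlap. Of 3 calls at loci of at most 150 bases, 0 passed 0.01 and 1 had such intervals; there were 6 at loci of at most 300 bases. RNY1 is lost under both rules. The planned pseudocounts of 0.1 and 10 were not run, since no ratio is taken against 0. No paired analysis was possible because the columns hold group values, and no library could be left out for the same reason. With depth unknown, values of 0 set no upper limit on RNY3, RNY4 or RNY5.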

Other observations

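Low wild type values at the 113-base loci, the length of RNY1, stood in nearly whole steps in the authors' deposited tables. In the table of tests the values of 2.74, 5.48 and 8.26 FPKM were 1, 2 and 3.01 times the lowest, and RNY1 was 20.1 times it. In the tracking table RNY1 was 20.0 times the lowest wild type value of the same 35 loci. Other lengths did not show such steps throughout: at 102 bases, the length of RNY3, the wild type values in the table of tests were 1, 2.03 and 3.42 times the lowest, and at 79 bases the value beside RNY5 was 2.42 times that of RNY5. The sources used here do not say how many fragments a step stands for, and the step of the knockout columns could not be read in the same way, since no locus of this length was above 0 in the table of tests and RNY1 alone was in the tracking table.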
